A study of Homo sapiens with 12 samples.

Results

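Untreated LP-1 and U266, 2 human lines of multiple myeloma, were compared in the 6 of 12 libraries that received the solvent DMSO and no drug, 3 libraries per line. The libraries were taken by the labels of line and treatment. Both lines were established from malignant plasma cells, and for both the labels give a WT genotype and bone marrow as the tissue. Cells were grown in serum-containing RPMI medium, and RNA was taken 12 h after DMSO was added. The other 6 libraries received dihydroartemisinin (DHA), an artemisinin antimalarial, at its IC50 for the same time, and served only as a check in libraries that did not choose the genes. Each line stands for itself alone, and the labels do not say whether its 3 libraries came from separate cultures, so the spread between them may be technical.

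The values are FPKM, fragments per kilobase of transcript scaled to library size, in 1 deposited table per line. The tables were made and normalised separately, so no test was run between the lines and no fold change is given. Instead, FPKM was ranked within each library over 18828 protein-coding genes found in both tables, and the rank was written as a percentile from 0 to 100. An on/off gene was under 0.5 FPKM in all 3 libraries of the line where it was off and at 5 FPKM or more in all 3 of the line where it was on. By this rule 94 genes (0.499% of the shared genes) were on in LP-1 and off in U266, and 235 (1.25%) were on in U266 and off in LP-1. A large rank shift was a difference of at least 25 percentile points between the lines' means, with no overlap between the 3 and 3 percentiles, among the 8401 genes of at least 1 FPKM in all 6 libraries. It took in 190 genes (2.26% of these) that ranked higher in LP-1 and 138 (1.64%) that ranked higher in U266, while 18171 shared genes met neither rule. These values chose the genes, so they are given as a description, and by construction the LP-1 and U266 libraries do not overlap in any of them.

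The 2 lines did not start from equal pools: 5422 genes (28.8%) were at 5 FPKM or more in all 3 LP-1 libraries, against 6607 (35.1%) in U266. From the steps of the low values, the LP-1 libraries held 13.4 to 15.4 M reads in genes (M stands for 1e+06) and the U266 libraries 14.4 to 21.7 M. For a transcript of 2 kb, 3 reads were worth 0.0971 to 0.112 FPKM in LP-1 and 0.069 to 0.104 FPKM in U266, and 0.5 FPKM was worth 13.4 to 15.4 reads in LP-1 and 14.4 to 21.7 reads in U266. These figures cover counting error only. Across genes, which are not independent replicates, Spearman's correlation was 0.975 to 0.983 between LP-1 libraries, 0.983 to 0.985 between U266 libraries and 0.839 to 0.849 between the lines. Genes listed at 0 in all 3 libraries share a mean percentile of 13 in LP-1 and 11 in U266. A value of 0 here is a listed value, since genes that every cell uses, such as *CDC42* and *GABARAP*, were also near 0 in 1 of the tables.

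**Figure D1:**
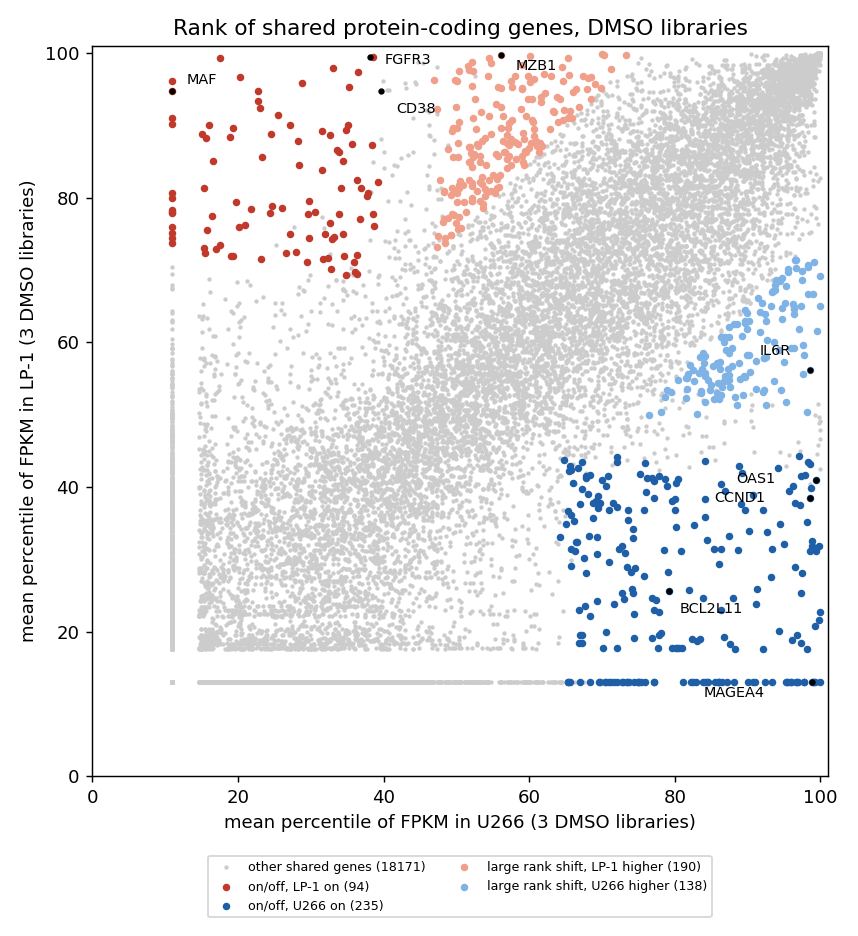
Mean percentile of FPKM in the 3 U266 (x axis) and 3 LP-1 (y axis) DMSO libraries for the 18828 shared protein-coding genes, where each point is a gene. Most genes lie near the diagonal, the 94 and 235 on/off genes fill the upper left and lower right corners, the 190 and 138 large rank shifts lie between, and the vertical and horizontal lines of points at 11 and 13 are genes listed at 0 in all 3 libraries.

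Myeloma cells are clonal descendants of plasma cells, the B lineage cells that make and secrete antibody, a state set up by the transcription factors PRDM1, XBP1 and IRF4. In many tumours a translocation places an oncogene under an immunoglobulin enhancer, and the common partners are a cyclin D gene, *NSD2* with *FGFR3*, and the MAF genes. LP-1 is known for the *NSD2* and *FGFR3* rearrangement, and U266 for an immunoglobulin enhancer inserted beside *CCND1*.

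Translocation targets differed between the lines in both directions. Of 12 translocation targets and D cyclins, 2 were on/off in the LP-1 direction (16.7%, beside 0.499% of all shared genes), 2 in the U266 direction (16.7%, beside 1.25%) and 8 were called by neither rule. *CCND1* (ENSG00000110092, chromosome 11, 69641087 to 69654474 in GRCh38), the cyclin that drives CDK4 and CDK6 in G1, was at 237, 229.9 and 238 FPKM in the U266 libraries. In LP-1 the same gene was at 0.25, 0.25 and 0.23 FPKM. The difference was -58.3 percentile points (LP-1 minus U266 here and below). Neither of the other D cyclins was called: *CCND2* was at 55.8, 65.01 and 42.4 FPKM in LP-1 and 121, 115 and 123 FPKM in U266, a difference of -1.9 points. *CCND3* was at 2.65 to 3.85 and 2.79 to 3.36 FPKM, and the ranges overlapped.

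*FGFR3* (chromosome 4, 1793293 to 1808872 in GRCh38), a receptor tyrosine kinase, was at 268, 240.0 and 211 FPKM in LP-1 and at 0.468, 0.521 and 0.128 FPKM in U266. U266 replicate 2 lay just over the limit of 0.5 FPKM, so *FGFR3* missed the on/off rule despite a difference of 61.3 points. *NSD2*, a histone H3 lysine methyltransferase and the constant target of that translocation, was expressed in both lines. Its values were 26.02, 27.04 and 18.2 FPKM in LP-1 and 15.1, 14.2 and 15.5 FPKM in U266, a difference of 8.8 points with no overlap. *MAF* (ENSG00000178573, chromosome 16, 79585843 to 79600714 in GRCh38), a basic leucine zipper factor, was at 33.7, 34.5 and 37.6 FPKM in LP-1 and listed at 0 in the 3 U266 libraries.

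The MYC family genes differed between the lines. *MYC* was at 221, 221 and 180.4 FPKM in LP-1 and 10.8, 9.69 and 9.58 FPKM in U266, 23.9 points apart, which is just under the limit for a large shift. *MYCL* was on in U266 at 69.7, 72.05 and 70.8 FPKM and off in LP-1 at 0.34, 0.29 and 0.2 FPKM. *MYCN* was on in LP-1 at 5.97, 6.37 and 6.80 FPKM and off in U266 at 0.223, 0.387 and 0.159 FPKM, the lowest of these levels. MYC, MYCN and MYCL are related transcription factors that pair with MAX and drive growth genes. *MYC* thus stood in the top percentile of LP-1 (99.4) and at 75.4 in U266.

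Among 21 measured tumour suppressors of myeloma, *TRAF3* was the member called (5.88% of the 17 expressed in both lines, beside 1.64%). *TRAF3*, an adaptor that restrains noncanonical NF-kB signalling, was at 2.40, 2.49 and 1.71 FPKM in LP-1 and 14.7, 15.5 and 14.8 FPKM in U266. The difference was -26.4 points, a large shift. *RB1*, the G1 brake that cyclin D kinases inactivate, ran the other way without reaching the limit, at 8.48, 9.11 and 6.59 FPKM in LP-1 and 1.90, 2.28 and 1.74 FPKM in U266 (24.0 points). *CDKN2A*, which encodes an inhibitor of those kinases, differed by 19.0 points. The *RB1* libraries did not overlap between the lines.

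**Figure D2:**
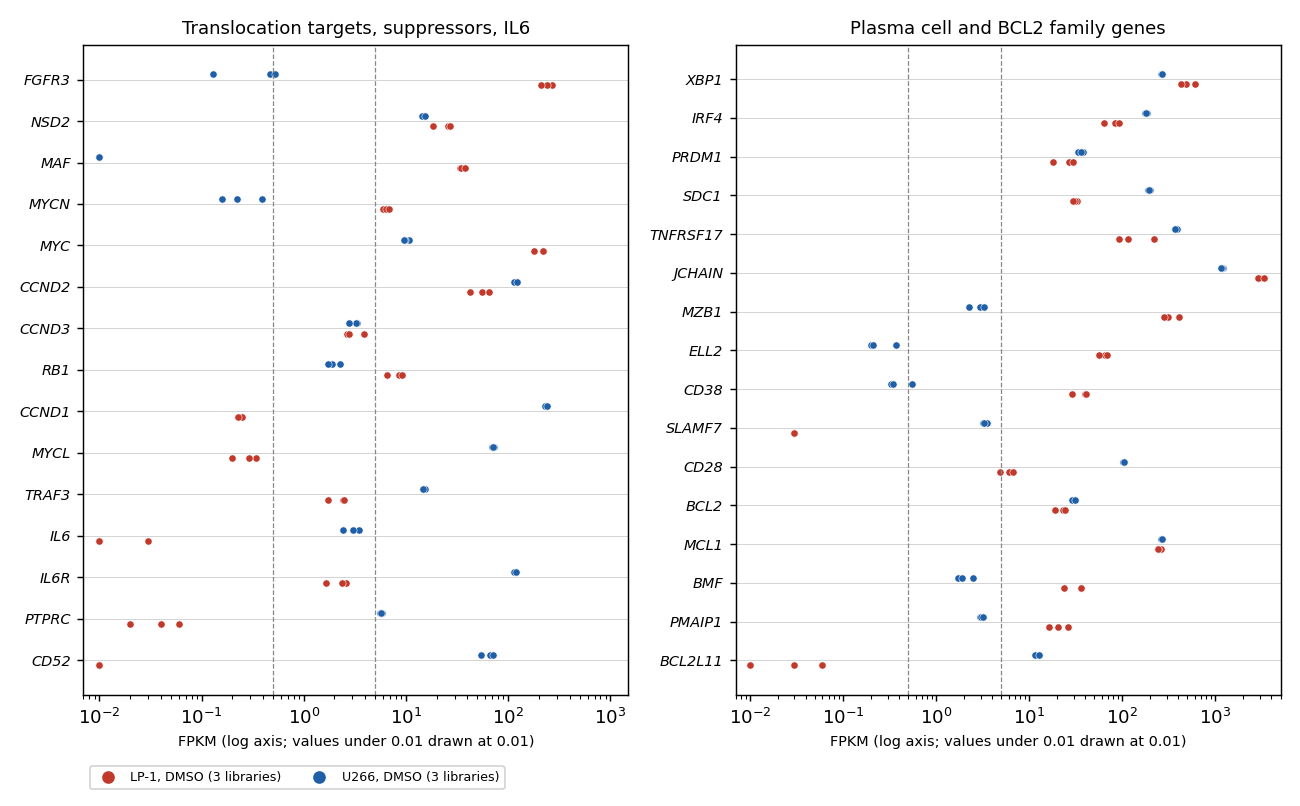
FPKM (log axis) of genes named in the text in each LP-1 (red) and U266 (blue) DMSO library, with 3 points per line and values under 0.01 drawn at 0.01. Dashed lines mark 0.5 and 5 FPKM. *CCND1* and *MYCL* lie left of 0.5 in LP-1 and right of 5 in U266, *MAF* and *ELL2* lie the other way round, as does *FGFR3* but for 1 U266 library just right of 0.5, and *XBP1* and *MCL1* lie close together.

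Of 20 plasma cell identity genes, 1 was on/off (*ELL2*, on in LP-1, 5% beside 0.499% of all shared genes) and 18 were called by neither rule. Of the 12 expressed in both lines, 1 was a large shift (*MZB1*, higher in LP-1, 8.33% beside 2.26%). *XBP1*, the regulator of secretory capacity, was at 483, 428 and 598 FPKM in LP-1 and 258, 268 and 267 FPKM in U266, 0.3 points apart. *IRF4* differed by -1.1 points, *PRDM1* by -1.9 and *TNFRSF17*, which encodes the survival receptor BCMA, by -0.7. *SDC1*, the plasma cell surface marker syndecan, was at 32.6, 31.1 and 29.1 FPKM in LP-1 and 187, 197.5 and 192 FPKM in U266 (-5.5 points). The median difference of the 20 was 1.3 points, beside 1.7 over all shared genes, and all 20 were above 0 in at least 1 library of each line. Summed FPKM of the list was 4110 to 4960 in LP-1 libraries and 2340 to 2390 in U266.

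The called plasma cell genes, and antibody targets fixed to be reported whatever their values, had the following levels. *ELL2* (chromosome 5, 95885098 to 95962071 in GRCh38), an elongation factor that promotes the secreted form of immunoglobulin heavy chain mRNA, was at 64.6, 68.7 and 55.5 FPKM in LP-1. U266 held 0.201, 0.369 and 0.207 FPKM. *MZB1*, an ER cochaperone of antibody assembly, was at 310.1, 282 and 403 FPKM in LP-1 and 2.94, 3.26 and 2.27 FPKM in U266, 43.5 points apart. *CD38*, an ectoenzyme and antibody target in myeloma, was at 40.1, 40.7 and 29.1 FPKM in LP-1 and 0.330, 0.347 and 0.553 FPKM in U266. As for *FGFR3*, a single U266 library above 0.5 FPKM (replicate 3) kept *CD38* out of the on/off class, and the lines lay 55.0 points apart. *SLAMF7*, another antibody target, was at 0.03, 0.03 and 0.03 FPKM in LP-1 and 3.20, 3.48 and 3.28 FPKM in U266. Its level in U266 was under the limit of 5 FPKM and its level in LP-1 under that of 1 FPKM, so neither rule applied. *GPRC5D* was low in both lines, at 0.71 to 0.72 and 0.937 to 2.65 FPKM.

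Of 40 measured surface and adhesion genes, 3 were on in U266 (7.5%, beside 1.25%), 1 of the 20 expressed in both lines was a large shift to U266 (5%, beside 1.64%) and none was called in the LP-1 direction, with a median difference of -6 points over the 40. *CD52*, a small glycoprotein of mature lymphocytes, was listed at 0 in the 3 LP-1 libraries and at 65.8, 71.3 and 54.1 FPKM in U266. *PTPRC*, which encodes the leukocyte phosphatase CD45, was at 0.06, 0.04 and 0.02 FPKM in LP-1 and 5.54, 5.81 and 5.72 FPKM in U266, just over the limit. *CD9*, a tetraspanin, was at 0.08 to 0.1 FPKM in LP-1 and 5.20 to 6.08 FPKM in U266. The costimulatory receptor gene *CD28* was expressed in both, at 6.05, 6.65 and 4.80 FPKM in LP-1 and 104.5, 101.1 and 105 FPKM in U266 (-27.7 points). The tetraspanin gene *CD53* and the cytoskeletal adaptor gene *HCLS1*, leukocyte genes outside the list, were on in U266, at 57.01 to 60.05 and 66.4 to 72.2 FPKM, and were chosen after their values were seen. *CXCR4*, the marrow homing receptor gene, ranked alike in both lines (-0.8 points).

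*IL6R* and *IL6* were higher in U266, a line known for its own IL6 supply. *IL6R* (chromosome 1, 154405193 to 154469450 in GRCh38), the ligand-binding receptor chain, was at 2.59, 2.39 and 1.66 FPKM in LP-1. The U266 libraries held 117, 113 and 119 FPKM, and the difference of -42.3 points was the third of the large shifts to U266 by size. *IL6* itself was at 0.03, 0 and 0 FPKM in LP-1 and 2.44, 3.50 and 3.03 FPKM in U266, too low in U266 for a call. The shared signalling chain *IL6ST* was at 28.3 to 45.5 FPKM in LP-1 and 50.6 to 58.3 FPKM in U266, -1.4 points apart. Of 44 cytokine, chemokine and receptor genes, 3 were on in U266 (6.82%, beside 1.25%), 1 shifted to U266 and 1 to LP-1 (6.67% of 15 each, beside 1.64% and 2.26%) and 39 were called by neither rule, with a median difference of 5.8 points. *CCL4*, a chemokine, was at 0.12, 0.04 and 0.25 FPKM in LP-1 and 30.6, 30.5 and 29.9 FPKM in U266. *MET*, the hepatocyte growth factor receptor, was at 0.37, 0.25 and 0.11 and 19.7, 17.9 and 19.4 FPKM. *IL2RB* was listed at 0 in LP-1 and at 5.10, 6.07 and 5.79 FPKM in U266, close to the limit. *IL21R*, the receptor of a plasma cell differentiation cytokine, was the member that ranked higher in LP-1, at 11.9, 10.4 and 9.59 FPKM against 1.10, 1.35 and 1.39 FPKM.

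Cancer-testis antigens, genes of the germ line that tumours can switch on and that are mostly clustered on the X chromosome, had the highest share on in U266 among the lists. Of 50 measured, 15 were on in U266 and off in LP-1 (30%, beside 1.25% of all shared genes), none was on in LP-1 and 35 were called by neither rule. Their median difference was -34.4 points, beside 1.7 over all shared genes. Summed FPKM of the list was 1.42 to 2.08 in LP-1 libraries and 1570 to 1840 in U266, and 36 of the 50 were listed at 0 in all 3 LP-1 libraries. *MAGEA4* (chromosome X, 151912509 to 151925170 in GRCh38) was listed at 0 in LP-1 and at 145, 159.6 and 149 FPKM in U266. *CTAG2*, a close relative of the NY-ESO-1 antigen gene, was listed at 0 in LP-1 and at 149, 165 and 156 FPKM in U266. The highest member was *PAGE2B*, at 0, 0.27 and 0.24 FPKM in LP-1 and 423, 496.5 and 428 FPKM in U266.

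The other members on in U266 were *MAGEA1*, *MAGEA3*, *MAGEA6*, *MAGEA12*, *MAGEB1*, *MAGEB2*, *PAGE2*, *PAGE5*, *GAGE12J*, *CSAG1*, *CSAG3* and *PRAME*. *PRAME*, a repressor of retinoic acid receptor signalling that lies outside the X chromosome, was the lowest of the 15, at 0.33, 0.08 and 0.19 FPKM in LP-1 and 9.59, 10.5 and 11.1 FPKM in U266. Not every member was on in U266: 16 of the 50 were under 0.5 FPKM in all 6 libraries, among them *MAGEC1* and *MAGEC2*. Of all 18828 shared genes 6545 were, a like share. Many of these genes have near-identical copies, so the split of reads within a family is uncertain. *MAGEA3* and *MAGEA6*, for example, agreed at 250 of 250 bases in the windows before their start sites. The *MAGEA3* window is shown because CpG content is compared between the classes below. It is RefSeq sequence of GRCh38.p14, chrX:152698544-152698751, plus strand, up to the first annotated start, with each CpG in capitals.
MAGEA3: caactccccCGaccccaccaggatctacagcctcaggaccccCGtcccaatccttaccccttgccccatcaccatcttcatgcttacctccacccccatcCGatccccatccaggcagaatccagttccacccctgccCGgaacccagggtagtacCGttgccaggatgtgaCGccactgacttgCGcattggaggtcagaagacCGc

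**Figure D3:**
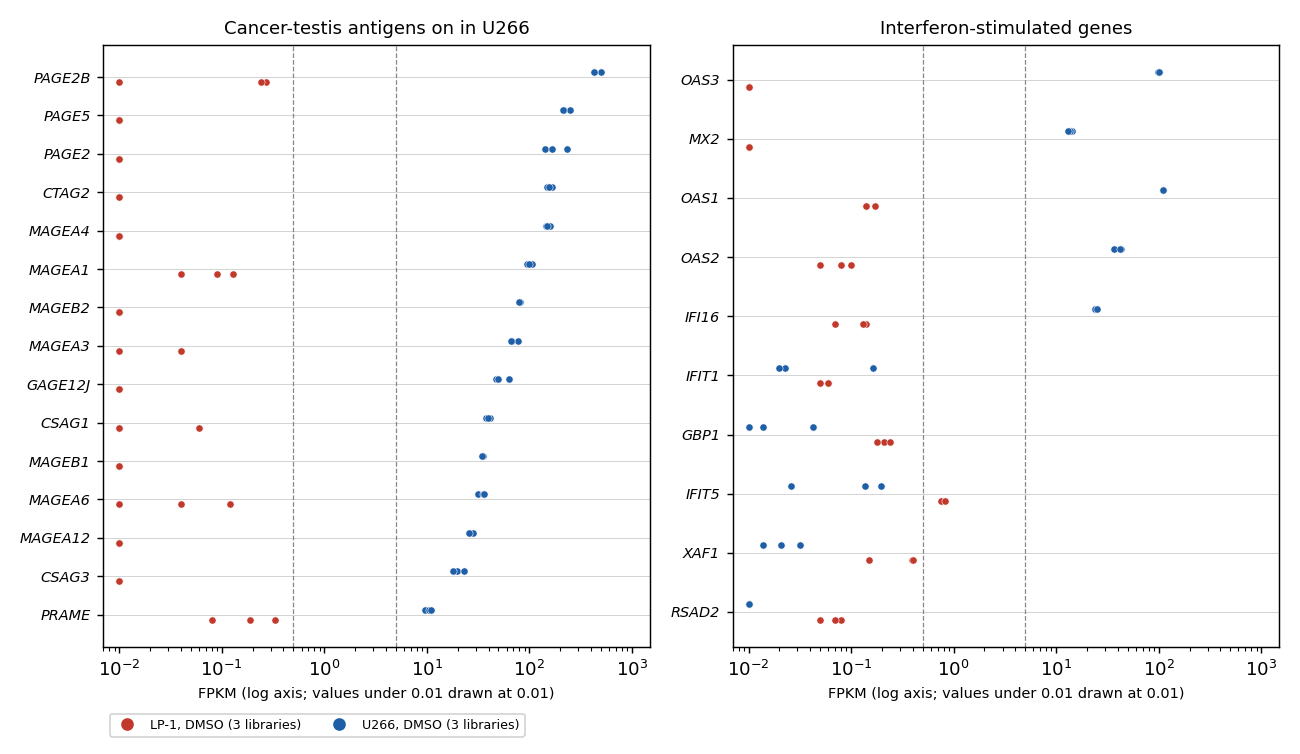
FPKM (log axis) in each LP-1 (red) and U266 (blue) DMSO library for the 15 cancer-testis antigens on in U266 (left) and for the 5 interferon-stimulated genes on in U266 and the 5 that ranked highest in LP-1 relative to U266 (right), with values under 0.01 drawn at 0.01 and dashed lines at 0.5 and 5 FPKM. All U266 points of the left panel lie above 5 and all LP-1 points below 0.5, whereas in the right panel the upper 5 genes lie higher in U266 and *IFIT1* and *RSAD2* are low in both lines.

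Interferon-stimulated genes split within the list. Of 37 measured, 5 were on in U266 (13.5%, beside 1.25% of all shared genes) and 31 were called by neither rule. The remaining member shifted to U266 (9.09% of the 11 expressed in both lines, beside 1.64%). The 3 oligoadenylate synthetases, which activate the antiviral ribonuclease RNase L, lay next to each other on chromosome 12 from 112906777 to 113011723 and were all on in U266. *OAS1* was at 0.17, 0.14 and 0.14 FPKM in LP-1 and 109.9, 110.3 and 110.1 FPKM in U266. *OAS3* was at 0, 0.01 and 0 FPKM in LP-1 and 100.3, 97.7 and 101.4 FPKM in U266. *OAS2* was at 0.1, 0.08 and 0.05 FPKM in LP-1 and 42.7, 36.9 and 41.8 FPKM in U266. The DNA sensor gene *IFI16* was at 0.07 to 0.14 FPKM in LP-1 and 23.7 to 25.1 FPKM in U266, and the GTPase gene *MX2* at 0 to 0.01 and 13.2 to 14.2 FPKM. *STAT6*, which transduces IL4 and IL13 signals and belongs to no list here, was picked after its values were seen. It was on in LP-1 at 17.2 to 22.9 FPKM and off in U266 at 0.0251 to 0.115 FPKM.

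Other genes of the interferon list were low in both lines: 12 of the 37 were under 0.5 FPKM in all 6 libraries. This was a like share to that of all shared genes, of which 6545 of 18828 were. *IFIT1* was at 0.05 to 0.06 FPKM in LP-1 and 0.0198 to 0.164 FPKM in U266, and *RSAD2* was at 0.05 to 0.08 FPKM in LP-1 and listed at 0 in U266. *CXCL10*, an interferon-induced chemokine gene counted with the cytokines, ran the other way at 9.44, 4.91 and 10.9 FPKM in LP-1 and 0.0896, 0.0779 and 0.234 FPKM in U266, and 1 LP-1 library under 5 FPKM kept it out of the on/off class. *ISG15* was at 0.77 to 2.32 and 0.559 to 1.76 FPKM, with overlap. Summed FPKM of the list was 190 to 282 in LP-1 libraries and 641 to 650 in U266. Their median difference was -8.2 points. The windows before *OAS1* and *OAS3* are shown because both hold a pair of GAAA repeats, the core of the element through which interferon-activated factors bind. Capitals mark GAAA repeated after any 2 bases or after a single C, and the sequences are RefSeq GRCh38.p14, plus strand: chr12:112906932-112906961 for *OAS1*, the last 30 bases before its RefSeq start, which lies inside the gene as GENCODE gives it, and chr12:112938224-112938351 for *OAS3*, up to the first annotated start.
OAS1: cctcccttctgagGAAACGAAAccaacagc
OAS3: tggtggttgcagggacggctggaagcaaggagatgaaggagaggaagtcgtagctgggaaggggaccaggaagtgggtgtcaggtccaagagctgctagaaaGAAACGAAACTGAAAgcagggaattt

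The called antigen presentation genes ranked higher in LP-1. Of 13 HLA class II presentation genes, 1 was on in LP-1 (7.69%, beside 0.499%), and of the 9 expressed in both lines 2 shifted to LP-1 (22.2%, beside 2.26%). Of 16 class I and peptide loading genes 1 shifted to LP-1 (6.67% of 15). Their median differences were 1.5 and 0.9 points. The on/off gene was *HLA-DOB*, at 5.60, 5.19 and 5.83 FPKM in LP-1 and 0.255, 0.172 and 0.297 FPKM in U266. Its partner *HLA-DOA* was at 32.3, 30.4 and 23.4 FPKM in LP-1 and 2.74, 2.45 and 2.65 FPKM in U266. Together they encode HLA-DO, which restrains peptide exchange by HLA-DM. *HLA-DMB* of that exchanger was also higher in LP-1, at 10.4 to 12.2 against 2.46 to 2.79 FPKM. Of the class I genes *HLA-F* was at 9.66 to 14.2 FPKM in LP-1 and 1.52 to 1.86 FPKM in U266. *CD74* and *HLA-DRA* differed by 0.1 and 0.2 points. HLA genes vary in sequence between people, so how reads of each line matched the reference can move their levels. Of the exon length of *HLA-DOB* 29.7% overlaps another gene, and of *HLA-F* 28.5%, against 9.41% for *HLA-DMB* and 0% for *HLA-DOA*. The levels of the first 2 thus also depend on how shared reads were counted.

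The BCL2 family set mitochondrial death thresholds, with guardians such as BCL2 and MCL1 and BH3-only antagonists such as BIM, BMF and NOXA. The guardians *MCL1* and *BCL2* ranked alike: *MCL1* was at 257, 243 and 241 FPKM in LP-1 and 267, 258 and 266.4 FPKM in U266 (0.0 points), and *BCL2* differed by -1.5 points. Some antagonists did not. *BCL2L11* (chromosome 2, 111119378 to 111168447 in GRCh38), which encodes BIM, was at 0.03, 0.06 and 0 FPKM in LP-1 and 12.6, 11.5 and 12.8 FPKM in U266. *BMF* ran the other way, at 36.1, 35.9 and 23.8 FPKM in LP-1 and 2.50, 1.70 and 1.91 FPKM in U266. *PMAIP1*, which encodes NOXA, was at 20.4, 16.5 and 26.01 FPKM in LP-1 and 2.92, 2.99 and 3.18 FPKM in U266. Of 17 members, these 3 were called: 1 on in U266 (5.88%, beside 1.25%) and 2 of the 9 expressed in both lines shifted to LP-1 (22.2%, beside 2.26%), and the median difference of the 17 was 1.5 points. *BCL2L1* was higher in U266 by rank without reaching the limit (-18.4 points).

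The series concerns ferroptosis, a form of cell death in which iron drives the peroxidation of membrane lipids. Of 24 ferroptosis suppressors 1 was called (*NQO1*, shifted to LP-1), of 27 ferroptosis drivers none, and of 28 iron genes 2 (*STEAP1* and *SLC25A37*, both shifted to LP-1). These shifts were 5.26% of 19 suppressors and 13.3% of 15 iron genes expressed in both lines, beside 2.26%. Summed FPKM of the suppressors was 7530 to 10600 in the LP-1 libraries and 2820 to 3480 in those of U266, and of the iron genes 7140 to 9930 and 2400 to 3030. Both lists hold the ferritin genes. The median differences of the 3 lists were -0.9, -0.4 and 2.4 points. *NQO1*, a quinone reductase, was at 49.8, 41.7 and 66.9 FPKM in LP-1 and 5.94, 7.12 and 6.59 FPKM in U266. *STEAP1*, of a family of metalloreductases, was at 37.9, 31.98 and 43.7 FPKM in LP-1 and 4.21, 3.75 and 2.76 FPKM in U266. *SLC25A37*, the mitochondrial iron importer mitoferrin, was at 17.3, 19.2 and 12.6 and 2.04, 1.97 and 1.71 FPKM. *GPX4*, which reduces lipid peroxides, was at 59.1, 48.5 and 99.2 FPKM in LP-1 and 184, 212 and 182 FPKM in U266, -1.8 points apart.

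The cystine importer gene *SLC7A11* was called by neither rule but was far apart in rank. It was at 0.53, 0.48 and 0.33 FPKM in LP-1 and 12.6, 11.5 and 12.2 FPKM in U266, -34.6 points apart, and LP-1 replicate 1 lay just over the limit of 0.5 FPKM. *TFRC*, the transferrin receptor, was at 12.9 to 16.4 FPKM in LP-1 and 60.3 to 62.7 FPKM in U266 (-10.6 points). *HMOX1*, which frees iron from heme, was at 3.08 to 5.23 and 15.6 to 17.2 FPKM (-19.8 points), and *ACSL4* differed by -10.5 points. *SLC40A1*, the iron exporter ferroportin, was at 0.35 to 0.58 FPKM in LP-1 and 1.48 to 1.99 FPKM in U266 (-6.5 points). The ferritin gene *FTH1* was at 435 to 446 FPKM in LP-1 and 27.8 to 38.4 FPKM in U266 (7.5 points), and 62.4% of its annotated exon length overlaps another gene, so its level depends on how shared reads were counted. Of 34 glutathione transferase and detoxification genes, 14 were expressed in both lines and 3 of these shifted to LP-1 (21.4%, beside 2.26%): *NQO1*, *NQO2* (9.79 to 12.3 against 1.46 to 1.83 FPKM) and *GSTO1* (19.5 to 35.7 against 1.71 to 3.18 FPKM). The list as a whole did not lie to LP-1: its median difference was -2.8 points. Its summed FPKM was 206 to 278 in LP-1 libraries and 366 to 394 in U266. None of 11 metallothioneins was called.

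The highest LP-1 on/off genes outside these lists covered several functions. *ITM2C* (chromosome 2, 230864639 to 230879248 in GRCh38), a transmembrane protein of the BRICHOS family that plasma cells express, was at 260.1, 225.5 and 251 FPKM in LP-1 and 0.363, 0.298 and 0.370 FPKM in U266. *SOX4*, a transcription factor of progenitor B cells, was at 54.3, 56.2 and 48.6 FPKM in LP-1 and 0, 0.0469 and 0.0118 FPKM in U266. *CLIC2*, a chloride channel family member, was at 68.2 to 76.7 and 0.0486 to 0.419 FPKM. The neural helix-loop-helix factor *BHLHE22* was at 44.1, 41.99 and 55.2 FPKM in LP-1 and listed at 0 in U266, as was *RALYL* with 20.6, 20.6 and 22.5 FPKM. *SMOC1*, a matricellular protein, was at 32.8 to 37.8 FPKM in LP-1, *IGFBP3*, which binds insulin-like growth factors, at 24.9 to 26.96 FPKM, and *CDKN1C*, an imprinted cyclin-dependent kinase inhibitor, at 19.9 to 33.1 FPKM. The integrin gene *ITGAX* and the lectin genes *CLEC2B* and *CLECL1P* completed the group, at 28.99 to 50.98, 25.9 to 40.9 and 18.9 to 26.7 FPKM. LP-1 replicate 3 was the lowest library for *ITGAX* and the highest for *CLEC2B* and *CDKN1C*. That library stood apart as a whole. Its FPKM summed to 2.25e+05 over the shared genes with a median of 0.96, against 1.85e+05 to 1.96e+05 and 1.15 to 1.17 in replicates 1 and 2. Without it 113 genes were on in LP-1 and off in U266, in place of 94. The rule asks for all libraries, so leaving any out can only raise this count. Leaving out any other single DMSO library gave 95 to 104. *SFRP1*, a secreted Wnt antagonist, was the called member of 41 Notch and Wnt genes (2.44%, beside 0.499%), at 16.3 to 20.5 FPKM in LP-1 and 0 to 0.0145 FPKM in U266.

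*MAF* was described above as on in LP-1, and its promoter window is shown as that of a gene on in the other line than *MAGEA3*, with a like number of CpGs over 250 bases (16 and 15). It is RefSeq sequence of GRCh38.p14, chr16:79600738-79600987, minus strand, with each CpG in capitals.
MAF: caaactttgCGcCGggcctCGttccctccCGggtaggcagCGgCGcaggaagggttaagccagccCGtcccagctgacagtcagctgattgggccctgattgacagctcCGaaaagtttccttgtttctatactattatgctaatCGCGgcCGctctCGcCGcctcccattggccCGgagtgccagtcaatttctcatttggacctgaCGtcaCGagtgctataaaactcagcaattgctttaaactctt

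*MIF* and *GABARAP* also met the LP-1 on/off rule, but their values carry a mark of how reads were counted. *MIF*, a cytokine and tautomerase, was at 165.5, 131 and 219 FPKM in LP-1 and 0.0950, 0 and 0 FPKM in U266, and another annotated gene covers 61.9% of its exon length. *GABARAP*, an autophagy protein, was at 42.7, 42.1 and 46.5 FPKM in LP-1 and 0.0930, 0.101 and 0.0304 FPKM in U266, with 55.7% covered. In the other direction *CDC42*, a GTPase of cell shape that dividing cells need, was picked after its values were seen. It was at 0.48, 0.43 and 0.28 FPKM in LP-1 and 106, 104 and 101.2 FPKM in U266, with 59.4% covered. For these 3 genes a difference between the cells and a difference in counting cannot be told apart. Genes with at least 20% of their exon length inside another gene made up 13.8% of the LP-1 on/off genes (13), 3.83% of the U266 on/off genes (9) and 11.7% of all shared genes. Without them the on/off counts were 81 and 226. Genes named elsewhere in the text with such overlap include *IL6* (20.7%), *IL21R* (23.3%), *BCL2L1* (43%), *RPL17* (35.3%) and *RPS10* (39.4%).

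In U266 the highest on/off genes were histones. *H4C2* was listed at 0 in LP-1 and at 549.9, 699.5 and 631 FPKM in U266, *H3C7* at 0.3, 0 and 0 FPKM in LP-1 and 589, 654 and 511 FPKM in U266. *H2AC14* was at 0.16, 0 and 0 FPKM in LP-1 and 446, 458 and 455.5 FPKM in U266. Of 65 histone genes, a group chosen after its values were seen, 15 were on in U266 (23.1%, beside 1.25%) and 1 (*H3C8*) in LP-1 (1.54%, beside 0.499%). Of the 19 expressed in both lines 6 shifted to U266 (31.6%, beside 1.64%). Neither rule called 43 of the 65, and the median difference was -32 points. Summed histone FPKM was 577 to 831 in LP-1 libraries and 15800 to 18700 in U266. Messages of replication-dependent histones end in a stem-loop in place of a poly(A) tail, so their capture depends on the library method. Whether these values come from the cells or from the making of the libraries cannot be told apart here. Without histone genes the U266 on/off count was 220.

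The remaining high U266 on/off gene was the chemokine gene *CCL3L3*, at 0.1, 0 and 0 FPKM in LP-1 and 214, 233 and 225 FPKM in U266. It has near-identical copies beside it, which makes its own share of reads uncertain. Further U266 on/off genes, picked after their values were seen, were *EYA2*, a transcriptional coactivator and phosphatase, at 84.3 to 87.5 FPKM, and *KLHL6*, a B cell ubiquitin ligase adaptor, at 73.3 to 75.1 FPKM. *ENPP2*, which encodes autotaxin, was at 69.9 to 73.2 FPKM and *PEG10*, an imprinted retrotransposon-derived gene, at 52.1 to 59.9 FPKM. In LP-1 these 4 genes were at 0, 0.01 to 0.03, 0 to 0.02 and 0.19 to 0.24 FPKM. *EYA1*, a paralog of *EYA2* picked in the same way, was on in LP-1 at 14.7 to 21.99 FPKM and off in U266 at 0.0177 to 0.0533 FPKM. These paralogs thus lay in opposite directions.

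Large rank shifts are genes that both lines expressed at 1 FPKM or more. The 8 largest to LP-1 were *SSTR3*, *P4HA2*, *ID1*, *ENO3*, *NME2*, *GPSM3*, *CTHRC1* and *ALDOA*. *SSTR3*, a somatostatin receptor, was at 52.6, 45.1 and 47.5 FPKM in LP-1 and 1.09, 1.10 and 1.05 FPKM in U266, 49.4 points apart. *P4HA2*, a collagen prolyl hydroxylase subunit, was at 68.9, 62.8 and 70.01 and 1.60, 1.69 and 1.56 FPKM (47.3 points). *ID1*, which blocks DNA binding by helix-loop-helix proteins, was at 104, 95.4 and 179.6 and 1.11, 3.34 and 1.79 FPKM, and LP-1 replicate 3 was the highest. The glycolytic enzymes *ENO3* and *ALDOA* were 46.6 and 45.2 points apart, and 53.5% of the *ALDOA* exon length overlaps another gene. *NME2*, a nucleoside diphosphate kinase, *GPSM3*, a G protein regulator, and *CTHRC1*, a secreted collagen-related protein, lay 46.5, 46.0 and 45.9 points apart. Of the *NME2* exon length 22.9% overlaps another gene.

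Among the largest shifts to U266 were *CASTOR2*, *IL6R*, *SH3KBP1*, *VRK1*, *CTSL*, *CTSZ* and *ATE1*. *CASTOR2*, of the CASTOR family of amino acid sensors upstream of mTORC1, was at 1.05, 1.43 and 1.02 FPKM in LP-1 and 92.9, 93.1 and 102.5 FPKM in U266 (-47.7 points). *SH3KBP1*, an adaptor of receptor endocytosis, was -41.9 points apart and the nuclear kinase gene *VRK1* -41.2 points. The lysosomal cathepsins *CTSL* and *CTSZ* both stood in this group. *CTSL* was at 1.19, 1.22 and 1.46 FPKM in LP-1 and 30.8, 32.7 and 31.6 FPKM in U266, and *CTSZ* at 2.59, 2.44 and 2.79 and 77.3, 91.3 and 86.02 FPKM. *ATE1*, which adds arginine to proteins marked for degradation, was -38.9 points apart.

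The 2 directions of rank shift differed in how their genes are built. Median exon length was 3882 bases (quartiles 2383 to 5806.25) for shifts to LP-1 and 5777.5 bases (2944 to 9184.75) for shifts to U266, beside 5127 for the 8401 genes expressed in both. Of the 190 shifts to LP-1, 45 (23.7%) had at least 20% of their exon length inside another gene, against 1 of 138 (0.725%) of the shifts to U266 and 8.98% of genes expressed in both. Without such genes the counts were 145 and 137. Length and overlap act on how reads are counted, and the tables were counted in ways not given in the sources used here. Their part in the shifts was not tested. On/off genes showed no such gap in length, with medians of 4276.5 bases (LP-1 on) and 4261 (U266 on) beside 4326.5 for all shared genes.

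**Figure D4:**
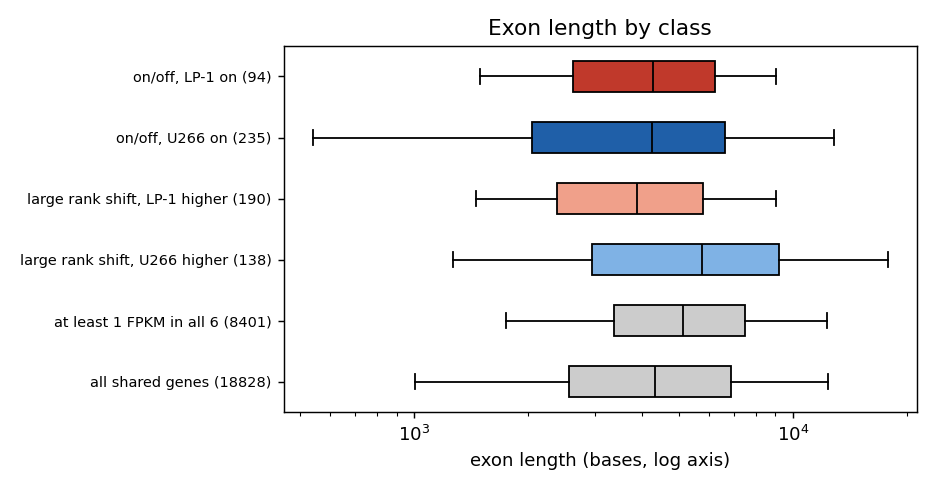
Exon length in bases (log axis) of each class of genes and of the 2 reference sets, with boxes from the lower to the upper quartile, a line at the median and whiskers from the 5th to the 95th percentile. The box of shifts to U266, with a median of 5777.5 bases, lies right of that of shifts to LP-1, with 3882.

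Genes that every cell uses show how often the rules call such genes between the tables. Of 79 ribosomal protein genes none was on/off, 4 shifted to LP-1 (5.06%, beside 2.26%) and 1 to U266 (1.27%, beside 1.64%). *RPL26* was at 269 to 423 FPKM in LP-1 and 7.07 to 8.03 FPKM in U266, and *RPL17* and *RPS10* shifted by 33.9 and 31.4 points. *RPL39* was the member that ranked higher in U266, at 3.79 to 11.9 and 161 to 180.4 FPKM. Ribosomal protein genes have many processed pseudogenes, which can take up reads. None of 32 proteasome subunits, 20 cytosolic aminoacyl-tRNA synthetases and 12 RNA polymerase II subunits was called. Percentiles lie close together at high FPKM, so genes high in both lines can differ and stay uncalled. *MYC*, at 180.4 to 221 FPKM in LP-1 and 9.58 to 10.8 in U266, was 23.9 points apart and uncalled. Summed FPKM was 1040 to 1660 (LP-1) and 1990 to 2140 (U266) for the proteasome. For the synthetases it was 749 to 775 and 1290 to 1310. Polymerase sums overlapped (365 to 545 and 354 to 391). The lack of calls thus does not show equal levels.

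None of 18 B cell, 16 T and NK cell, 15 monocyte, macrophage and granulocyte or 11 stromal and endothelial markers was called. Summed FPKM of the B cell list was 9.48 to 17.1 in the LP-1 libraries and 18.4 to 19.9 in those of U266. Summed FPKM of the T and NK cell list was 0.94 to 1.06 in LP-1 libraries and 3.11 to 3.42 in U266, and that of the monocyte list 0.29 to 0.5 and 1.2 to 1.8. The B cell gene *MS4A1* was at 0.04 to 0.41 and 0.281 to 0.750 FPKM. Of 10 erythroid markers, 1 was on in U266 (10%, beside 1.25%), and the only 1 expressed in both lines shifted to U266 (beside 1.64%). The on/off gene was *HBB*, at 0.11, 0.11 and 0.1 FPKM in LP-1 and 9.78, 11.1 and 9.82 FPKM in U266. The shifted gene was *HBD*, at 2.13, 1.48 and 4.45 and 25.9, 27.8 and 23.04 FPKM. Other erythroid genes did not move with them: *HBA1*, *HBA2* and *AHSP* were listed at 0 to 0.126, 0 to 0.0615 and 0 FPKM in U266 and listed at 0 in LP-1. The erythroid list had a sum of 2.12 to 4.59 FPKM in LP-1 and 33.8 to 40.1 in U266. In bulk RNA, fewer cells that express a gene and less RNA per cell cannot be told apart.

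The on/off genes were unevenly spread over the chromosomes. Of the U266 on/off genes 25 lay on the X chromosome (10.6%, beside 4.24% of shared genes). These 25 include the cancer-testis antigens named above as on in U266, except *PRAME*. The share on X is thus not separate from the result for that list. On chromosome 13, 9 of 312 shared genes (2.88%) were of this class and on chromosome 21, 7 of 211 (3.32%), beside 1.25% of all shared genes. Of the LP-1 on/off genes 10 lay on chromosome 8 (10.6%, beside 3.41%), 1 on chromosome 1, which holds 1930 shared genes, and none on chromosomes 9, 10 and 21. These last 3 hold 725, 690 and 211 shared genes, and this class is 0.499% of all shared genes, so few were to be found there. Neighbours in gene order were on/off together in U266 in places: 39 of the 235 genes stood in 18 runs, 3 of them of 3 genes. Those 3 runs were *H4C1*, *H4C2* and *H2AC4* on chromosome 6, *OAS1*, *OAS3* and *OAS2* on chromosome 12, and *ZNF100*, *ZNF43* and *ZNF208* on chromosome 19. The zinc finger genes *ZNF43* and *ZNF208* were listed at 0 in LP-1 and at 8.79, 7.60 and 8.57 and 10.8, 8.02 and 7.65 FPKM in U266. Among LP-1 on/off genes, 6 stood in 3 pairs. These were *EYA1* with *MSC* on chromosome 8, *ITM2C* with *GPR55* on chromosome 2 and *CEP170B* with *PLD4* on chromosome 14.

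The 2 on/off classes had different median CpG counts before their start sites, which the rule did not use and which were not tested. Windows of 250 bases before the start were taken for the 10841 shared genes with a single start in the RefSeq table. The median number of CpG dinucleotides was 20 (quartiles 10.75 to 29.25) for 44 LP-1 on/off genes and 13 (7 to 21) for 139 U266 on/off genes. All shared genes had a median of 18 and genes expressed in both lines 22. The 9 cancer-testis antigens with a window had 15 and the 14 histone genes 8. Without both groups the other 116 U266 on/off genes had 14. The *MAGEA3* and *MAF* windows shown above hold 15 and 16 CpGs in their full 250 bases.

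Motifs were counted on both strands of the same windows. GAAA followed by any 2 bases and a second GAAA stood in 9 U266 on/off windows (6.47%), in no LP-1 on/off window and in 314 of all (2.9%). Histone and cancer-testis genes held 4 of the 9, and without both groups the share was 4.31%. Among rank shifts it stood in 6 windows of shifts to LP-1 (5.94%) and 2 of shifts to U266 (3.03%). GAAACGAAA, chosen after the sequences were read and free to overlap the first motif, stood in 2 U266 on/off windows (1.44%), those of *OAS1* and *OAS3* shown above, and in 14 of all (0.129%). CCGGAA stood in 20.5% of LP-1 and 16.5% of U266 on/off windows, beside 20.6% of all. TATAAA stood in 9 of the 14 windows of histone genes on in U266 (64.3%) and in 10.1% of all. A match describes these letters and shows no bound factor.

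The DHA libraries of the same lines did not choose the genes. Of the 94 LP-1 on/off genes 31 (33%) met the same rule there, and of the 235 U266 on/off genes 193 (82.1%), where the rule called 0.239% and 1.34% of the shared genes. Leaving out U266 DHA replicate 3 was chosen after seeing the data, and no other DHA library was left out for these shares. For on/off genes this can only raise the shares. Without it they were 65 of 94 (69.1%) and 196 of 235 (83.4%), beside 0.515% and 1.38%. Of the large shifts to LP-1, 98 of 190 (51.6%) met their rule with DHA, beside 1.8% of expressed genes, and of those to U266 71 of 138 (51.4%), beside 1.45%. Without replicate 3 these shares were 46.3% and 52.9%, beside 1.63% and 1.47%. In all 657 genes the difference kept its direction with DHA. These libraries carry the drug and come from the same 2 tables, so they repeat whatever separates the tables.

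**Figure D5:**
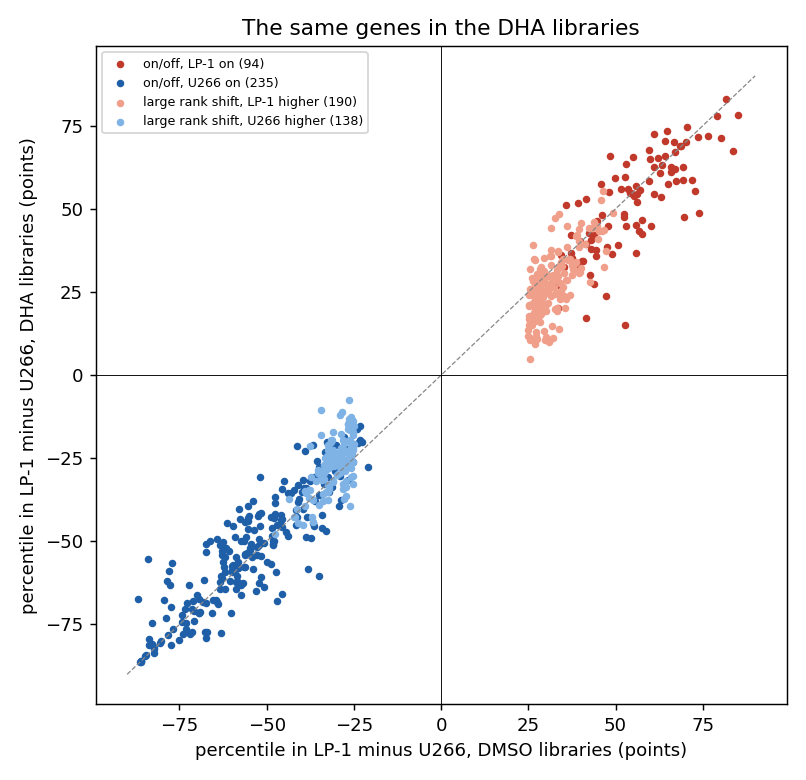
Percentile difference (LP-1 minus U266, in points) in the DMSO libraries (x axis) and in the DHA libraries (y axis) for the 94, 235, 190 and 138 called genes, where the dashed line marks equal values. All points lie in the upper right or lower left quadrant, and shifts to either line lie closer to 0 than most on/off genes.

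DHA itself moved few genes across these limits. Within LP-1, 1 gene met the on/off rule between DMSO and DHA in each direction, and within U266 3 genes were off with DMSO and on with DHA and none the reverse. Some named genes moved closer together with the drug. The difference of *SLC7A11* was -34.6 points with DMSO and -16.1 with DHA, that of *HMOX1* -19.8 and -5.4. Others moved apart: *MYC* went from 23.9 to 46.3 points and *SDC1* from -5.5 to -30.4. *CCND1* (-62.2 points), *MAGEA4* (-86.0) and *OAS1* (-57.3) stayed within 5 points of their DMSO values.

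The edges of the classes were close. *NRBP2* (5.14 to 8.88 FPKM in LP-1, 0.0840 to 0.310 in U266) lay just inside the LP-1 on/off class and *CCDC78* (6.41 to 8.79 and 0.333 to 0.508) just outside. *GPX3* (0.28 to 0.4 and 5.03 to 6.39) lay just inside the U266 class and *FKBP9* (0.43 to 0.5 and 5.60 to 6.67) just outside. Among shifts, *NLGN2* and *PLTP* fell on either side of the limit of 25 points to LP-1, equal to it after rounding, and *ATR* lay just outside the limit to U266. Of the U266 on/off genes 61 were listed at 0 in all 3 LP-1 libraries, and of the LP-1 on/off genes 13 in all 3 U266 libraries.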

How the data were processed

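Expression was deposited by the authors as FPKM, in 1 table per line, from total RNA of 12 libraries, of which the 6 DMSO libraries chose the genes. Per the labels' protocols, an RNeasy kit gave the RNA and a SMARTER mRNA kit the libraries. Both tables hold human genes, although GRCm38 and mm10, which are mouse builds, stand in the submitters' processing notes. The aligner, counter and annotation were not given in the sources used here. In LP-1 the table held 61806 Ensembl identifiers, of which 19838 are protein-coding in GENCODE v29 (GRCh38), and in U266 it held 19130 symbols. Of these 18875 were matched (18183 by current symbol, 692 by GENCODE name). Y-linked genes (45) and 2 repeated symbols were left out, which gave 18828. Library depth was recovered from the steps of the low FPKM values, and the share of them within 0.1 read of a whole count was 87.4 to 88.2% for LP-1 libraries and 94.8 to 95.9% for U266 libraries.

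FPKM was ranked within each library, with the mean rank for ties. The 2 tables were normalised apart, so the results are counts and values with no test. The on/off and shift rules were run on simulated data, in which both lines had the LP-1 means with noise and planted changes. The simulation held no difference in annotation, counting or normalisation, so it cannot show how the rules behave between the tables. Named genes were the 15 on/off genes per direction with the highest value in their lowest library, the 8 largest shifts per direction, called members of 26 gene lists (up to 4 per list and direction, and all in the translocation, suppressor, plasma cell, BCL2, ferroptosis and iron lists), runs of 3 or more neighbours, 37 genes fixed whatever their values and the genes nearest the thresholds. The libraries, rules and lists were chosen with earlier results of these data known. Lists not named in the report were NF-kB factors and targets (24 genes; *CCL4* on and *TRAF3* shifted in U266) and families taken by symbol: ZNF (516 genes; 4 on in LP-1, 12 on in U266, 3 shifted to LP-1, 2 to U266), PCDH (65, none called), HOX (39, *HOXD4* on in U266), SLC (375; 1 on in LP-1, 2 on in U266, 1 shifted to LP-1) and MAGE (34; 7 on in U266). Exon length and overlap came from GENCODE v29 and promoter windows from the RefSeq table of GRCh38.p14, and protein sequences were not used here. Alternatives were other thresholds, floors and scalings, removal of gene families, of overlapping genes and of histones, the DHA libraries and each replicate left out. Python 3.11.15, pandas 2.3.3, numpy 2.4.6 and matplotlib 3.10.9 were used. Some named genes are not reported here.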

Additional observations from a re-analysis of the deposited data

How the results depend on the processing

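No paired analysis was possible because the results come from no test and the replicate numbers do not pair LP-1 with U266 libraries. The main counts were 94 and 235 on/off genes (LP-1 on, U266 on) and 190 and 138 rank shifts (to LP-1, to U266). With limits of 0.1 and 10 FPKM the on/off counts were 15 and 82, and with limits of 1 and 5 FPKM 142 and 315. FPKM rescaled to a common sum (1e+06) gave 194 and 404, of which 43 and 140 were among the main genes. Rescaling to the mean sum of the 6 libraries, chosen after seeing the data, gave 102 and 219, of which 92 and 217 were. The DHA libraries gave 45 and 253. Shifts of 20 points or more numbered 386 and 296, and of 35 points or more 45 and 21. Shifts without a floor numbered 852 and 917, and with a floor of 5 FPKM 20 and 2. Ranks taken over the expressed genes alone, which spreads their percentiles, gave 977 and 994. Without 1 replicate the on/off counts, which can then only rise, were 95 to 113 and 239 to 247. The shift counts were 192 to 203 and 133 to 156. All other settings stayed within 1.5 times the main count. Among them were removal of overlapping genes, of histones and, from the DHA libraries, of U266 replicate 3, all chosen after seeing the data. Of 132 named genes no called one changed sign. With the DHA libraries 5 that neither rule called did (*IL6ST*, *GPRC5D*, *IRF4*, *PRDM1* and *BCL2*, from between -4.2 and -1.1 points to between 0.4 and 12.2), and *MS4A1* (-0.8) did without LP-1 replicate 3 (2.4) or U266 replicate 3 (1.4). Without 1 replicate all 132 moved by less than the spread between replicates. With 3 libraries per line this holds by arithmetic, so it shows nothing on stability. With the DHA libraries 43 moved by less than that spread and 89 moved further. With ranks over the expressed genes 3 of the 67 that could be ranked moved by less and 64 moved further. Line and table cannot be told apart at any setting, and at these depths 0.5 FPKM rests on few reads for short transcripts.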

Other observations

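Some genes that lay far apart met neither rule, because the lower line was not under 0.5 FPKM throughout yet not at 1 FPKM throughout, or because the higher line stayed under 5 FPKM. The following were chosen after their values were seen. *GSTP1*, the main glutathione transferase of many tumours, was at 1.65, 1.59 and 0.40 FPKM in LP-1 and 195, 223 and 210.3 FPKM in U266. *HLA-DRB5*, a class II beta chain gene that not every haplotype carries and that has close paralogs, was at 0.89, 0.36 and 0.73 FPKM in LP-1 and 63.9, 68.6 and 60.2 FPKM in U266. In the other direction *CCR1*, a chemokine receptor, was at 50.3, 50.1 and 35 FPKM in LP-1 and 0.579, 0.637 and 0.682 FPKM in U266. *STEAP3*, an endosomal ferrireductase of the transferrin cycle, was at 4.79 FPKM or less in LP-1 and at 0, 0.0201 and 0 FPKM in U266. The Wnt coreceptor *LRP6* was at 2.65, 2.98 and 1.59 FPKM in LP-1 and at 0.0306, 0 and 0 FPKM in U266, while its paralog *LRP5* was at 4.94, 5.45 and 3.43 FPKM and 0.82, 1.01 and 0.984 FPKM. In none of these genes did the 3 and 3 libraries overlap.

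The chemokine genes *CCL3* and *CCL5*, picked in the same way, lay in opposite directions. *CCL3* was at 7.07, 5.55 and 10.03 FPKM in LP-1 and 59.0, 70.9 and 69.2 FPKM in U266, on the side of *CCL4*, and another annotated gene covers 74.6% of its exon length. *CCL5* was at 13.3, 12.1 and 12.5 FPKM in LP-1 and 3.97, 4.21 and 4.42 FPKM in U266.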
